A study of Drosophila melanogaster with 12 samples.

Results

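The core Polycomb group genes were examined in implanted wing imaginal discs of *Drosophila melanogaster*. The set was fixed by gene symbol as 7 subunits of Polycomb repressive complex 1 (PRC1: Pc, ph-p, ph-d, Psc, Su(z)2, Sce and Scm) and 3 subunits of Polycomb repressive complex 2 (PRC2: E(z), esc and Su(z)12). Of these 10 genes, 7 were matched to a probe, 1 probe each, among the 12058 genes tested. They are Pc, Psc, Sce and Scm of PRC1 and all 3 of PRC2. The paralogous pair ph-p and ph-d, and Su(z)2, the paralog of Psc, were not analysed here, so that PRC1 is described from 4 of its 7 listed genes.

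Polycomb group proteins keep developmental genes silent once their expression pattern has been set, and they were discovered in flies as repressors of the homeotic genes. PRC2 places a repressive methyl mark on histone H3, and PRC1 binds chromatin that carries this mark, monoubiquitylates histone H2A and compacts the chromatin. In imaginal discs Polycomb silencing holds cells to their determined fate, and it is known to weaken in fragments that regenerate. The arrays bear on whether transcripts of the complexes themselves changed after implantation, and whether cutting made a difference.

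All discs came from larvae of the w118iso; 2iso; 3iso DrosDel isogenic line and were cultured in the abdomen of adult Canton S females, implanted soon after the hosts eclosed. Discs were either left whole (non-cut, NC) or reduced to an anterior fragment by removal of a posterior sector (cut, C). The 3 comparisons were intact discs from 0 to 24 hours (NC0→NC24), cut discs over the same period (C0→C24), and cut discs from 24 to 72 hours (C24→C72). Each comparison had 2 biological replicates, and each replicate was hybridized on 2 two-colour oligonucleotide arrays with the dyes swapped, which gave 4 arrays per comparison and 12 in all. The 24-hour cut RNA was one channel in both cut comparisons and enters them with opposite signs, and no array set cut against intact discs. There was no intact sample at 72 hours.

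The values are log2 ratios of later over earlier RNA and hold no expression level, so that neither the abundance of a transcript nor the identity of the tissue could be read from them. Dye-swapped arrays of the same RNA correlated across genes at 0.686 to 0.844 in the first 2 comparisons, but at only 0.438 and 0.200 in C24→C72. Some markers of other cell types moved too, counted by the rule for a call that the next paragraph gives. Over all genes 5.14% were called up and 3.85% down in NC0→NC24. In C0→C24 these shares were 6.12% and 4.94%, and in C24→C72 1.36% and 1.58%. Of 12 hemocyte markers 3 rose in NC0→NC24, 7 rose in C0→C24 and 1 fell in C24→C72, with log2 changes of the list from -0.53 to 2.56, from -0.53 to 4.04 and from -1.04 to 0.28. Of 5 larval fat body markers 1 rose, 4 rose and 2 fell in the same order, and their changes spanned -0.39 to 0.97, 0.13 to 1.97 and -2.20 to -0.29. Of 15 ovary and germline markers only the chorion gene Cp16 was called (down in both 24-hour comparisons), but in C24→C72, the comparison in which esc was highest, the list ran from -0.19 to 1.86 with a median of 0.15. The yolk protein genes Yp3 and Yp1 read 1.86 (replicate means 3.30 and 0.42, adjusted p = 0.0534) and 1.13 (2.10 and 0.17, adjusted p = 0.0766) there, and the germline gene piwi 0.40 (adjusted p = 0.0269, under 1.5-fold). Of 6 muscle markers only Mlc2 was called (up in both 24-hour comparisons). The list ran from -0.535 to 1.22, -0.165 to 1.11 and -0.32 to 0.515 in the 3 comparisons, with medians of 0.069, 0.0125 and 0.231. Mlc1 went the other way in NC0→NC24 (-0.535, limma adjusted p = 0.00653, under 1.5-fold). With a replicate of the comparison left out, the calls of Hml in NC0→NC24 (replicate 2), Cp16 in C0→C24 (replicate 1), Lsp2 in C0→C24 (either) and C24→C72 (replicate 1) and Nplp2 in C24→C72 (either) were lost. In whole-disc RNA fewer cells of a type and less RNA per cell cannot be told apart, and the part of these cell types in the values below was not tested.

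No core Polycomb gene was called in any comparison. A gene was called where limma's adjusted p (Benjamini-Hochberg over all 12058 genes) was under 0.05 and the change was at least 1.5-fold, which is 0.58 on the log2 scale. In NC0→NC24 0 of the 7 measured members were called, where 8.99% of all genes were. In C0→C24 it was 0 of 7 beside 11.1%, and in C24→C72 0 of 7 beside 2.94%. At an unadjusted p under 0.05 there were 0, 1 (Sce) and 1 (esc) of the 7 members, beside 32.6%, 35.6% and 25.7% of all genes. By the adjusted p alone, with no fold threshold, there were 0, 0 and 1 (esc), beside 22.3%, 26.7% and 9.09%. The sizes of change were small. The median absolute log2 change of the 7 members was 0.088 in NC0→NC24 beside 0.13 over all genes, 0.12 beside 0.14 in C0→C24, and 0.078 beside 0.13 in C24→C72.

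**Figure D1:**
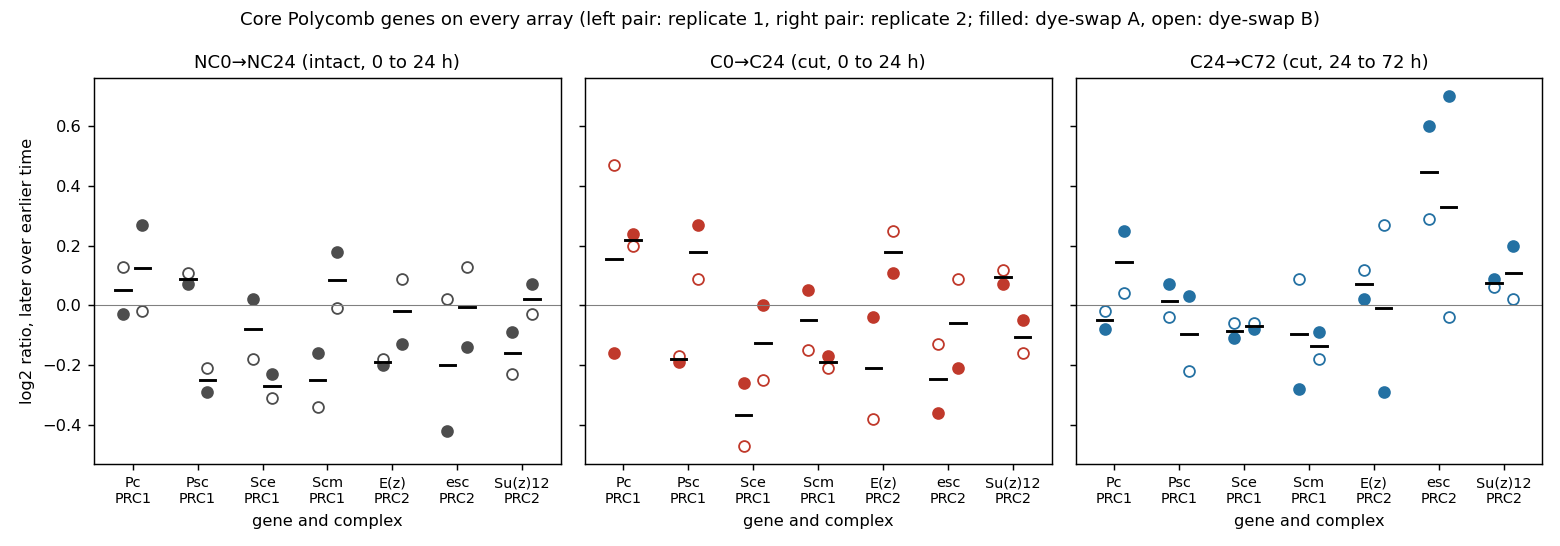
Log2 ratio of later over earlier time (y axis) for the 7 measured core Polycomb genes (x axis) on all 12 arrays, with a panel for each comparison. Filled and open points are the 2 dye orientations, the left pair of points is replicate 1, the right pair replicate 2, and bars are replicate means; 2 esc arrays in C24→C72 (0.60 and 0.70) are the highest, and all other values lie within 0.5 of 0.

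Pc, the chromodomain subunit of PRC1 that reads the PRC2 mark, stayed near or slightly above 0. Its arrays read -0.03 and 0.13 in replicate 1 and 0.27 and -0.02 in replicate 2 of NC0→NC24. In C0→C24 they were -0.16 and 0.47, then 0.24 and 0.20, and in C24→C72 -0.08 and -0.02, then 0.25 and 0.04. Arrays of the same RNA differed by up to 0.63, more than any pair of replicate means of Pc did. The fitted log2 change of Pc was 0.09 ± 0.09 (SE, n = 2; limma adjusted p = 0.558) in NC0→NC24, 0.19 (95% interval -0.01 to 0.38, adjusted p = 0.157) in C0→C24 and 0.05 (adjusted p = 0.778) in C24→C72.

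Sce is the RING finger ubiquitin ligase of PRC1 that modifies histone H2A. Its arrays gave 0.02, -0.18, -0.23 and -0.31 in NC0→NC24. In C0→C24 they gave -0.26 and -0.47 in replicate 1 and 0.00 and -0.25 in replicate 2. All 4 arrays of C24→C72 lay between -0.11 and -0.06. No array of cut discs was above 0, and a single array of intact discs was. The fitted change was -0.18 (-0.39 to 0.04, adjusted p = 0.241) in intact discs and -0.25 (-0.46 to -0.03) in cut discs over the same period, where the unadjusted p was 0.0283 and limma's adjusted p 0.0902. From 24 to 72 hours it was -0.08 (adjusted p = 0.651).

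Psc, the partner of Sce in the catalytic module, differed between replicates. The replicate means were 0.09 and -0.25 in NC0→NC24, -0.18 and 0.18 in C0→C24, and 0.02 and -0.10 in C24→C72. The 2 replicates had opposite signs each time, and the fitted changes were -0.08, 0.00 and -0.04 with adjusted p of 0.710, 1 and 0.868. Scm, a SAM domain protein that associates with PRC1, gave replicate means of -0.25 and 0.09 in NC0→NC24, -0.05 and -0.19 in C0→C24, and -0.10 and -0.14 in C24→C72. Both replicates of cut discs were below 0 in both periods, by less than the test could separate from 0 (fitted changes -0.12 and -0.12, adjusted p = 0.464 and 0.514).

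E(z), the methyltransferase of PRC2, showed no direction shared by replicates in cut discs. Its replicate means were -0.19 and -0.02 in NC0→NC24, -0.21 and 0.18 in C0→C24, and 0.07 and -0.01 in C24→C72. Single arrays of the last comparison ran from -0.29 to 0.27, and the fitted changes were -0.11, -0.02 and 0.03 (limma adjusted p = 0.576, 0.948 and 0.895). Su(z)12, the zinc finger subunit needed for the enzyme's activity, lay near 0 over the first 24 hours, with replicate means of -0.16 and 0.02 in intact discs and 0.10 and -0.11 in cut discs. In C24→C72 its 4 arrays read 0.09, 0.06, 0.20 and 0.02, all just above 0, with a fitted change of 0.09 (adjusted p = 0.569).

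esc, the WD40 repeat subunit that lets PRC2 recognise its own mark, was the exception among the 7 genes. Its arrays were -0.42, 0.02, -0.14 and 0.13 in NC0→NC24 and -0.36, -0.13, -0.21 and 0.09 in C0→C24. In C24→C72 they were 0.60 and 0.29 in replicate 1 and 0.70 and -0.04 in replicate 2. Below 0 lay 2 of 4 arrays of intact discs and 3 of 4 of cut discs over the first 24 hours, and 3 of 4 arrays of the later period were above every earlier array. The fitted change was -0.10 (adjusted p = 0.517) in NC0→NC24, -0.15 (-0.36 to 0.06, adjusted p = 0.294) in C0→C24 and 0.39 ± 0.09 (SE, n = 2; 0.18 to 0.60) in C24→C72. The last value is 1.31-fold and had a limma adjusted p of 0.0348, so that it met the p threshold but not the fold threshold. It exceeded the change of 94.5% of the genes tested.

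The esc value rested on a few arrays. Without either replicate of C24→C72, or with any other replicate left out, its adjusted p lay between 0.0563 and 0.178, while its log2 change stayed between 0.33 and 0.45. The arrays with the 72-hour RNA in Cy5 gave 0.65 alone (adjusted p = 0.00649) and those with it in Cy3 gave 0.13 (adjusted p = 0.620).

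**Figure D2:**
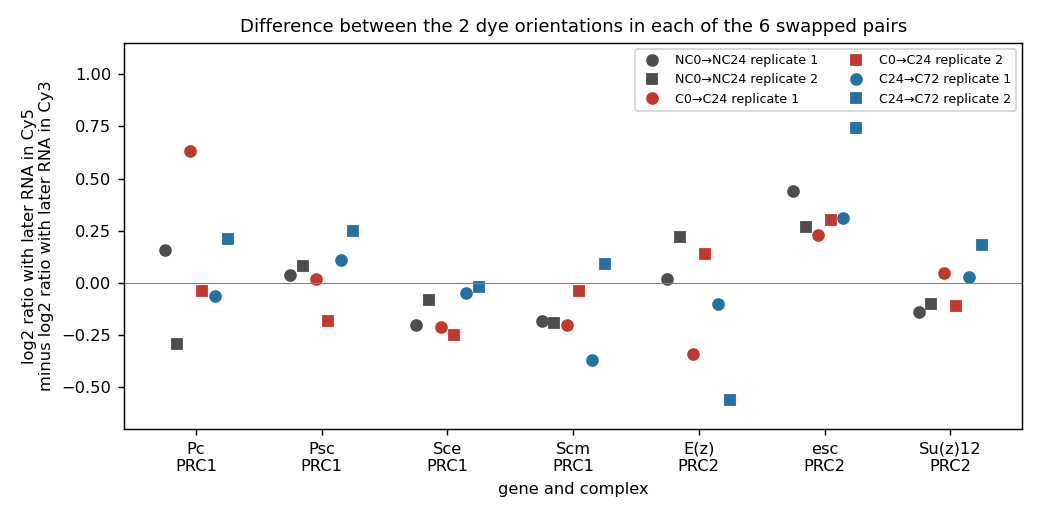
Difference between the 2 dye orientations (log2 ratio with the later RNA in Cy5 minus that with it in Cy3, y axis) for the 7 measured members (x axis) in the 6 swapped pairs, coloured by comparison, with circles for replicate 1 and squares for replicate 2. All 6 esc pairs are above 0 (0.23 to 0.74) and all 6 Sce pairs below it (-0.25 to -0.02), and other members have pairs on both sides.

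The orientation of the dyes moved esc in every pair. The log2 ratio with the later RNA in Cy5 exceeded that with it in Cy3 in 6 of 6 pairs, by 0.38 on average (0.23 to 0.74), which is about the size of its change in C24→C72. For Sce the difference was below 0 in 6 of 6 pairs but smaller, at -0.14 on average. In Pc, E(z) and Su(z)12 it was above 0 in 3 of 6 pairs each. Each replicate mean holds both orientations, so that a constant difference of this kind cancels in it, but one that varies between pairs, as from 0.31 to 0.74 for esc in C24→C72, does not. A fit of all 12 arrays with a dye term takes out a constant difference. In it esc read 0.39 (0.21 to 0.56, limma adjusted p = 0.00656, under 1.5-fold) in C24→C72. That fit counted dye-swapped arrays as nearly independent (correlation 0.025). The part of a varying dye difference in the esc change was not tested.

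**Figure D3:**
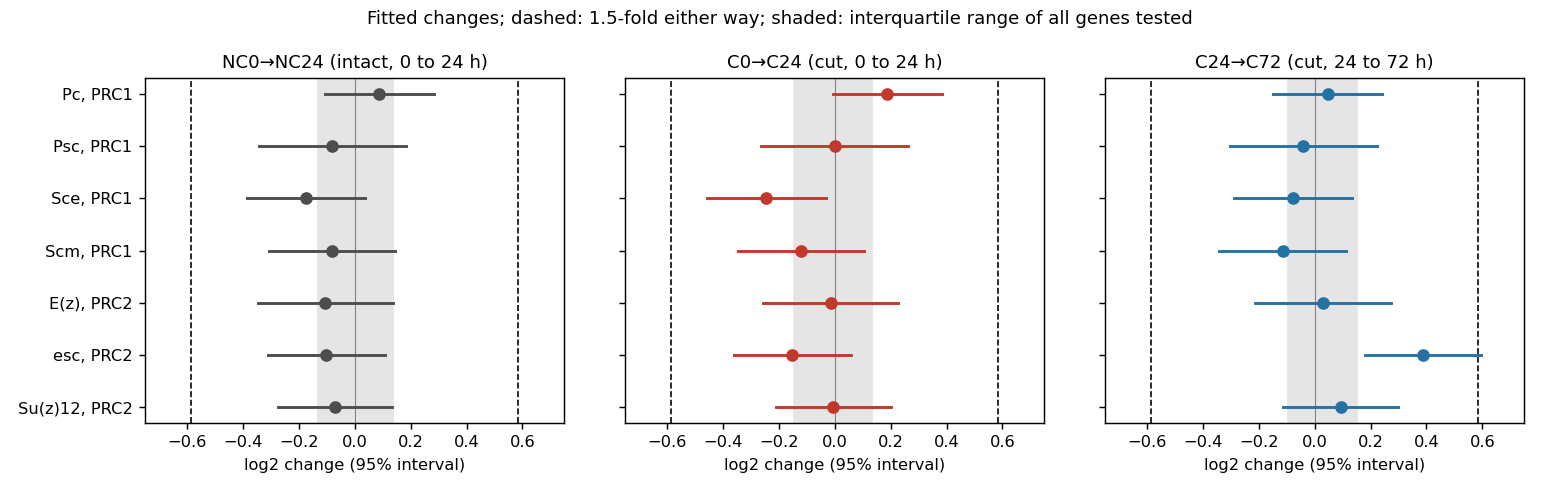
Fitted log2 change (x axis) with 95% interval for each measured member (y axis) in the 3 comparisons, with dashed lines at 1.5-fold either way and the interquartile range of all genes shaded. No interval reaches the left dashed line, and only that of esc in C24→C72 (0.18 to 0.60) reaches the right one.

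The intervals set how large an unseen fall of the core genes could have been in RNA of the whole disc or fragment. Such RNA averages over all cells, so that a larger fall confined to a few of them, as near the wound, was not bounded. Over the 7 members the lowest bound was -0.39 in NC0→NC24, -0.46 in C0→C24 and -0.34 in C24→C72, or falls of 1.31-fold, 1.37-fold and 1.27-fold. No member's interval in these comparisons therefore held a 1.5-fold fall, while only the interval of esc in C24→C72 held a 1.5-fold rise. These limits count the spread between 2 replicates, borrowed across comparisons and genes, and with a single replicate left in the comparison they widened. The interval of 1 member then held a 1.5-fold fall without replicate 1 of NC0→NC24 or without replicate 2 of C0→C24, as it did in C0→C24 on the arrays with the 24-hour RNA in Cy5 alone.

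Cutting made no difference that the arrays could resolve. C0→C24 minus NC0→NC24 ran from -0.07 for Sce to 0.10 for Pc, with 0 of 7 members called beside 0.0746% of all genes, and limma's adjusted p was 0.997 for every member. Their 95% intervals together spanned -0.37 to 0.45, so that a difference of 1.5-fold in either direction lay outside them, but smaller differences did not. Without either replicate of NC0→NC24 or without replicate 1 of C0→C24, and on the arrays with the 24-hour RNA in Cy5 alone, the interval of at least 1 member reached a 1.5-fold rise. At an unadjusted p under 0.05 there were 0 of 7 members, beside 5.94% of all genes.

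Over the whole 72 hours, taken as the sum of both cut comparisons through the shared 24-hour RNA, 0 of 7 members were called beside 16.8% of all genes. The adjusted p alone took 0 of 7 beside 25.3%, and an unadjusted p under 0.05 took 1 (Sce) beside 36.2%. Sce had the lowest sum, -0.32 (-0.62 to -0.02, unadjusted p = 0.038, limma adjusted p = 0.112), and its interval held a 1.5-fold fall. Scm summed to -0.24 (adjusted p = 0.273), while Pc and esc both summed to 0.24 (adjusted p = 0.205 and 0.237). The sums of Psc, E(z) and Su(z)12 were -0.04, 0.02 and 0.09. The change of esc in the later period minus that in the first was 0.54 (0.24 to 0.84, adjusted p = 0.0246), short of 1.5-fold, and 0 of 7 members were called in that difference beside 9.98% of all genes. The adjusted p alone took 1 member (esc) beside 14.8%, as did the unadjusted p beside 28.4%. The adjusted p of esc in this difference was 0.191 without replicate 1 and 0.068 without replicate 2 of C0→C24, and 0.0774 without replicate 1 of C24→C72. On the arrays with the 24-hour RNA in Cy5 alone the difference was 0.15 (adjusted p = 0.685). Since the 24-hour RNA enters this difference from both sides, an error of that RNA alone would count double in it. In the 72-hour sum such an error would cancel. The fit took the cut comparisons as independent, so that the intervals and p-values of the difference and the sum do not allow for this.

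**Figure D4:**
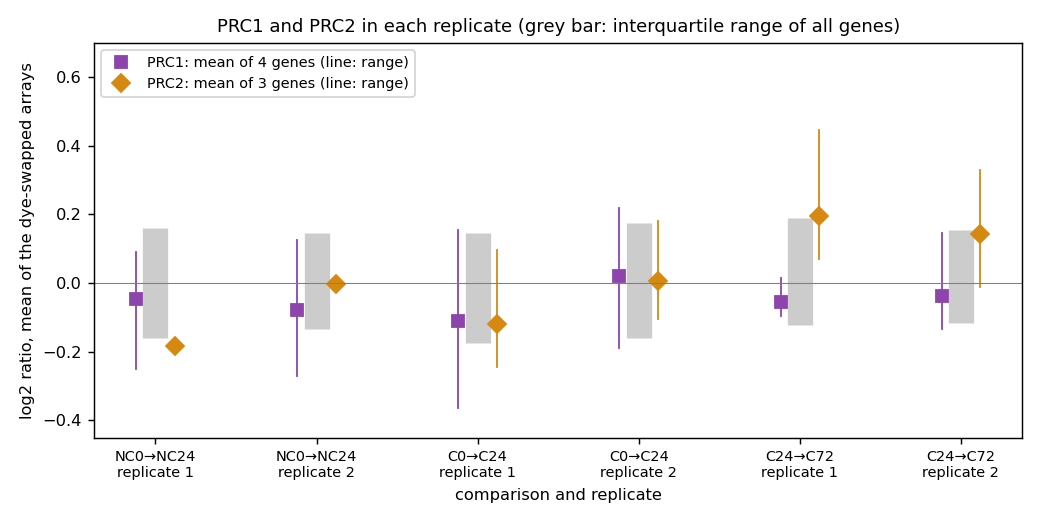
Mean log2 ratio over the 4 measured PRC1 genes (squares) and the 3 PRC2 genes (diamonds) in each replicate (x axis; y axis, mean of the dye-swapped arrays), with lines for the range over genes and grey bars for the interquartile range of all genes. PRC2 lies above PRC1 in both replicates of C24→C72 by 0.25 and 0.18, and on either side of it in NC0→NC24.

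The 2 complexes did not part in the first 24 hours. In NC0→NC24 the mean of PRC2 minus that of PRC1 was -0.14 in replicate 1 and 0.08 in replicate 2. In C0→C24 it was -0.01 and -0.02. The median log2 change was -0.08 for PRC1 and -0.10 for PRC2 in NC0→NC24, and -0.06 and -0.02 in C0→C24, beside 0.00 and -0.01 over all genes.

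In C24→C72 PRC2 stood higher in both replicates. The mean of its 3 genes was 0.20 and 0.14, that of the 4 PRC1 genes -0.05 and -0.04, and the medians of the fitted changes were 0.09 and -0.06 beside 0.03 over all genes. esc was the highest of the PRC2 genes in both (replicate means 0.45 and 0.33). E(z) and Su(z)12 gave 0.07 and 0.08 in replicate 1, above the highest PRC1 gene at 0.02, but -0.01 and 0.11 in replicate 2, below Pc at 0.15. No test of the complexes was made, because their few genes are not replicates of a condition.

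Around the core complexes, single partners changed more than any core subunit. Of 5 PRC2 partners 1 was called down in NC0→NC24, where 3.85% of all genes were. In C0→C24 1 was called up and 1 down, beside 6.12% and 4.94% of all genes. None was called in C24→C72, and over 72 hours 1 was up and 1 down, beside 9.43% and 7.4%. Caf1-55, the histone-binding subunit that PRC2 shares with chromatin assembly factor and deacetylase complexes, fell in both 24-hour comparisons. Its replicate means were -1.01 and -0.68 in NC0→NC24, -0.58 and -0.63 in C0→C24, and 0.06 and -0.10 in C24→C72. All means of the first 24 hours lay far below those of the later period, and the fit gave -0.84 (limma adjusted p = 0.000474), -0.60 (adjusted p = 0.002) and -0.02. In C0→C24 the call was lost at a 2-fold threshold, on the arrays with the 24-hour RNA in Cy3 alone and without replicate 2 of C0→C24.

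Pcl (Polycomblike), which helps PRC2 bind chromatin and reach high levels of methylation, went the other way. Its replicate means were 0.07 and 0.53 in NC0→NC24, 0.66 and 0.51 in C0→C24, and 0.59 and 0.48 in C24→C72. Every mean was above 0, and the 4 of cut discs were close together. It was called in C0→C24 at 0.59 (0.33 to 0.84, adjusted p = 0.00484), which is the fold threshold itself, and this call was lost in 5 of 18 alternatives, among them the omission of replicate 1. In C24→C72 Pcl read 0.53 (adjusted p = 0.0242, under 1.5-fold), and over 72 hours it rose by 1.12 (adjusted p = 0.00122), a call lost on the arrays with the 24-hour RNA in Cy5 alone. The difference between cut and intact discs was 0.29 (-0.08 to 0.65, adjusted p = 0.945). The esc paralog escl read 0.09, 0.20 and -0.10 in the 3 comparisons (adjusted p = 0.693, 0.318 and 0.650), and neither jing nor Jarid2 was called.

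**Figure D5:**
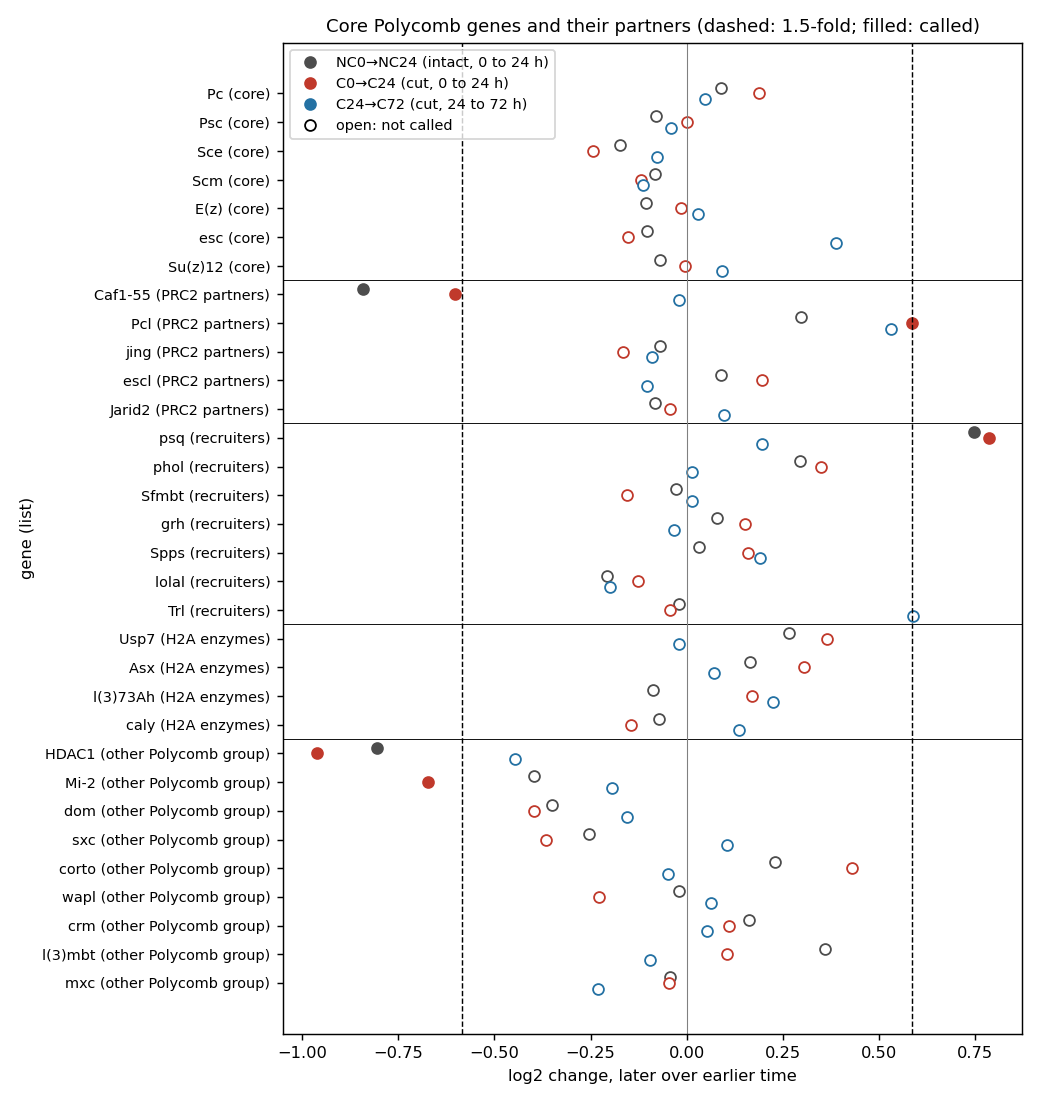
Fitted log2 change (x axis) in the 3 comparisons for the core members and 4 lists of partners (y axis), with filled points for genes called and dashed lines at 1.5-fold. All core points are open and within 0.4 of 0, whereas Caf1-55, Pcl, psq, HDAC1 and Mi-2 have filled points; Trl is open in C24→C72 with its mean at the dashed line and replicate means of 1.13 and 0.05.

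Among 7 measured genes listed as recruiters of Polycomb complexes to DNA, psq (pipsqueak, a protein of GAGA sites) was the only one called. It was called up in NC0→NC24 and in C0→C24, where 5.14% and 6.12% of all genes were. Its replicate means were 0.64 and 0.86 in NC0→NC24 and 0.76 and 0.82 in C0→C24, and it rose by 0.75 and 0.79 (limma adjusted p = 0.000262 in C0→C24). phol, the paralog of the unmatched pho, stayed under 1.5-fold at 0.30 (adjusted p = 0.035) and 0.35 (adjusted p = 0.0137). Sfmbt, its partner in the complex that binds Polycomb response elements, read -0.03, -0.16 and 0.01. The 2 probes of Trl, which encodes GAGA factor, disagreed (-0.72 and 0.68 in NC0→NC24), so that the mean of Trl is uncertain. None of 4 measured genes of H2A ubiquitylation was called, beside 8.99%, 11.1% and 2.94% of all genes in the 3 comparisons. The H2A deubiquitylase caly read -0.07, -0.15 and 0.14 and its partner Asx 0.17, 0.31 and 0.07.

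Of 9 other genes with Polycomb group phenotypes, 1 fell in NC0→NC24, 2 fell in C0→C24 and 0 in C24→C72, where 3.85%, 4.94% and 1.58% of all genes were called down, and none rose. HDAC1, a histone deacetylase, had replicate means of -0.85 and -0.77 in NC0→NC24, -1.06 and -0.87 in C0→C24, and -0.42 and -0.48 in C24→C72, below 0 throughout. It fell by 0.81 and 0.96 in the first 2 comparisons and by 1.41 over 72 hours. Mi-2, a nucleosome remodeller, fell by 0.67 in C0→C24 and by 0.87 over 72 hours, and neither call held at a 2-fold threshold. The call over 72 hours was also lost on the arrays with the 24-hour RNA in Cy5 alone. HDAC1 and Mi-2 act in many complexes besides Polycomb silencing, as Caf1-55 does. Of 12 replication and cell cycle genes 4 fell in NC0→NC24 and 1 (PCNA) in each cut comparison. Of these calls Mcm3 and RnrL in NC0→NC24 were lost without replicate 1, and PCNA in C24→C72 without replicate 2. The part of proliferation in these values was not tested.

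The trithorax group, known as antagonists of Polycomb, and genes of histone H3 lysine 4 methylation were measured for 17 of 21 genes. In NC0→NC24 1 was called up and 1 down, beside 5.14% and 3.85% of all genes. In each cut comparison 1 was called up and none down, beside 6.12% and 1.36% of all genes called up. ash2, a subunit of the complexes that place an activating methyl mark on histone H3, rose by 1.26 in NC0→NC24, 1.13 in C0→C24 and 0.87 in C24→C72 (limma adjusted p = 0.000161, 0.000157 and 0.0039). Its 6 replicate means ran from 0.72 to 1.46, all far above those of any core Polycomb gene. The call in C24→C72 was lost when that comparison was fitted alone and on the arrays with the 24-hour RNA in Cy5. Its partner wds fell by 0.62 in NC0→NC24, a call lost on the same arrays and without replicate 1. In C0→C24 wds read -0.55 (adjusted p = 0.0101, under 1.5-fold). Also under 1.5-fold, Rbbp5 read -0.455 in NC0→NC24 and -0.36 in C0→C24 (adjusted p = 0.00698 and 0.0169). Dpy-30L1 read -0.38 and -0.385 (adjusted p = 0.00882 and 0.0068). Lpt went the other way at 0.41 (adjusted p = 0.00794) and 0.23 (adjusted p = 0.0828). The founding member trx read 0.31 (adjusted p = 0.045), 0.27 and 0.27, each under 1.5-fold, and Utx, the demethylase that removes the PRC2 mark, read 0.03, 0.14 and 0.33 (adjusted p = 0.115 in C24→C72). The 2 probes of Utx had opposite signs in NC0→NC24 (-0.245 and 0.31) and C0→C24 (-0.14 and 0.41), so that its means there are uncertain. In C24→C72 they read 0.27 and 0.39.

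Known targets of Polycomb silencing in discs were listed too, 48 of 56 of them measured. Their median log2 change was -0.06, -0.05 and 0.01 in the 3 comparisons, beside 0.00, -0.01 and 0.03 over all genes. In NC0→NC24 none was called, beside 5.14% of all genes up and 3.85% down. In C0→C24 chinmo, a repressor of differentiation, rose by 0.93, and drm, dac and ara, which pattern limbs and body wall, fell by 0.92, 0.75 and 0.63, where 6.12% of all genes were called up and 4.94% down. In C24→C72 none rose and drm, esg and toy fell by 0.70, 0.65 and 0.61, beside 1.36% up and 1.58% down. These 3 calls were lost when C24→C72 was fitted alone, on the arrays with the 24-hour RNA in Cy5, and without replicate 1 (drm, esg) or replicate 2 (toy), and that of ara in C0→C24 on the same arrays and without replicate 2. None of these genes differed between cut and intact discs by the test of the difference, where chinmo read 0.69 (adjusted p = 0.332) and ara -0.47 (adjusted p = 0.325). Over 72 hours 1 target (chinmo, 1.27) was called up and 7 down, beside 9.43% and 7.4% of all genes, and of those 7 al, pnr and toy were lost without replicate 1 of C0→C24.

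Some readouts of JNK signalling, a pathway known to lower Polycomb group transcripts in regenerating discs, moved in the same RNA. Of 8 measured readouts 4 rose in NC0→NC24, 5 rose in C0→C24 and 4 fell in C24→C72, beside 5.14% and 6.12% of all genes called up and 1.58% down. The paper had reported cbt, Gadd45, ple and Ets21C as changed on these same arrays, so that the counts are no separate support. Not called in any comparison were puc (0.31, 0.24 and -0.12), which the paper describes as a readout of JNK activity, egr and kay. Gadd45 changed by 1.08, 2.03 and -1.25 and cbt by 1.34 and 1.39 over the first 24 hours. With a replicate of the comparison left out Gadd45 stayed called each time, while cbt was lost without replicate 1 of C0→C24, and ple, scyl and Ets21C each lost at least 1 call in every comparison where they had one. Over that period the change of every core Polycomb gene lay between -0.25 and 0.19.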

How the data were processed

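RNA of wing discs was compared on 12 two-colour oligonucleotide arrays. The deposited values are log2 ratios that the authors normalized with the mad method of OLIN for each set of 4 arrays, after scanning and spot quantification in GenePix Pro; they tested genes with limma, whose version is not given in the sources used here. Base and direction were inferred: all dye-swapped pairs correlated positively, and 6 of 6 and 18 of 18 genes with a stated direction had that sign. Depth has no meaning here, and the number of arrays limits the precision; without intensities, whether a spot was above background is unknown.

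Of 16416 features, 13164 carried a single gene symbol; symbols were updated by gene identifier (12533) or accession (120) or kept (511), and probes of a gene were averaged (12058 genes). The 2 swapped arrays of a replicate were averaged, and the 6 means were fitted as 3 groups in limma 3.58.1 (R 4.3.3) with 3 residual degrees of freedom. Cut minus intact, the 72-hour sum and the difference between periods are contrasts of that fit. The labels call the replicates biological, but do not say which discs or hosts each pooled. The steps were tested on simulated data. The 1.5-fold threshold is that of the deposited description; the text of the paper names 2-fold, which was run as an alternative.

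The members and lists were chosen with earlier results of these data known. All members are named with their values; of other lists, called genes with the smallest adjusted p (up to 4) and a few defining members. No member was called, so that no genes of similar pattern were sought. Alternatives changed the fold threshold, the fit, the dye orientations used, a replicate block, centring, scaling, probe averaging, moderation and the replicates. Promoter and protein sequences were not used here.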

Additional observations from a re-analysis of the deposited data

Results flagged for a closer look

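Among the genes listed here, 3 differed between cut and intact discs by the test of the difference, and none is a Polycomb gene. Over the first 24 hours the log2 change of the hemocyte markers eater and He was higher in cut than in intact discs. The differences were 1.29 (limma adjusted p = 0.0268) and 1.01 (adjusted p = 0.0404), and that of the fat body marker fat-spondin was 0.99 (adjusted p = 0.0404). He fell in intact discs (-0.53) and rose in cut discs (0.475). In intact and cut discs eater read 0.14 and 1.43, and fat-spondin 0.97 and 1.96. These calls were lost in 8 (eater), 10 (He) and 12 (fat-spondin) of 17 alternatives. In the 21 sets of 4 arrays of the measured core genes no array stood apart from the other three.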

How the results depend on the processing

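No alternative called a core member in NC0→NC24, C0→C24, cut minus intact or the 72-hour sum. By limma's adjusted p alone, the fit of all 12 arrays with a dye term took 1 member in C0→C24 and 1 in the sum. Neither was esc (adjusted p = 0.200 and 0.157), and every change there was under 1.5-fold. That fit counted dye-swapped arrays as nearly independent (correlation 0.025). In C24→C72 1 member (esc) was called with no fold threshold and 1 on dye-swap A alone (the 24-hour RNA in Cy3; in Cy5 for dye-swap B); in the difference between periods it was also 1 in both, and 0 to 1 as replicates were left out. Direction of small changes was less stable. On dye-swap A alone E(z) read 0.035 in C0→C24 and -0.135 in C24→C72, Psc 0.05 in C24→C72, Scm 0.01 in NC0→NC24 and Su(z)12 0.01 in C0→C24, and on dye-swap B alone esc read 0.075 in NC0→NC24. With single replicates left out E(z) ranged from -0.21 to 0.18 in C0→C24 and -0.01 to 0.07 in C24→C72, Pc from -0.05 to 0.15 and Psc from -0.095 to 0.015 in C24→C72, Psc from -0.25 to 0.09, Scm from -0.25 to 0.085 and Su(z)12 from -0.16 to 0.02 in NC0→NC24, and Su(z)12 from -0.11 to 0.10 in C0→C24.

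The PRC1 median in C24→C72 was -0.0225 on dye-swap A alone, -0.0738 with centred arrays and -0.0825 to -0.0588 with replicates left out; the PRC2 median was 0.145 on dye-swap A and 0.125 on dye-swap B. With replicates left out the PRC1 median ranged from -0.0825 to -0.015 in NC0→NC24 and -0.193 to -0.0313 in the 72-hour sum, and the PRC2 median from -0.21 to -0.015 in C0→C24, -0.105 to 0.155 in cut minus intact, 0.07 to 0.21 in the sum and 0.085 to 0.24 in the difference between periods. Where a single replicate was left, it was assumed to vary like the others. The causes were not tested.

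Whether the replicate numbers pair samples between comparisons is not given by the labels. Deviations of same-numbered replicates correlated little across genes (-0.12, 0.02 and -0.08), which cannot settle it, and the main fit did not pair them. With a replicate block 0 members were called, the adjusted p of esc in C24→C72 was 0.0542, and calls in cut minus intact over all genes went from 9 to 0; with the numbers of NC0→NC24 crossed, chosen after seeing the data, they were 2.

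Over all genes 1084, 1334, 354, 9, 2029 and 1203 were called in NC0→NC24, C0→C24, C24→C72, cut minus intact, the sum and the difference between periods. A 2-fold threshold gave 308, 425, 67, 7, 775 and 386, and no fold threshold 2692, 3222, 1096, 9, 3050 and 1781. Among other listed calls, the 2-fold threshold lost those of Caf1-55, psq, HDAC1 and wds in NC0→NC24. In C0→C24 it lost Caf1-55, Pcl, psq, HDAC1, Mi-2, chinmo, drm, dac and ara, and in C24→C72 ash2, drm, esg and toy. Over 72 hours it lost Caf1-55, psq, Mi-2, al, dac, esg, pnr and toy. C24→C72 had 27 calls when fitted alone, 796 on dye-swap A and 142 on dye-swap B; the difference between periods had 1845 and 273 on the same arrays, and 504 without replicate 1 of C0→C24. Cut minus intact had 2 on dye-swap A, 0 on dye-swap B, 5 with centred arrays, 4 with each probe as its own feature, and 0 to 15 with replicates left out.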
